A study of Mus musculus with 150 samples.

Results

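Single wild-type mouse lung cells were divided by whether they held transcripts of Cdkn1a, and all other genes were contrasted between the 2 groups. Of 73 wild-type cells on the chip, 1 carried a debris or valve remark and 6 had fewer than 1000 detected genes, leaving 66 (of 150 samples in the whole series). Cells with Cdkn1a at a TPM of at least 1 numbered 31, and cells below that numbered 35. TPM is the share of transcripts that a gene takes in a cell, corrected for gene length and scaled to the same total in every cell, and a gene was called detected in a cell at a TPM of at least 1. Since the groups were chosen by the Cdkn1a level of the same cells, its own values are a description and support nothing.

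The series compares p53 knockout with wild-type airway epithelial cells, in bulk libraries and in single cells captured in microfluidic wells on Fluidigm C1 chips. The wild-type cells are labelled as lung of genotype wild type, and the protocol names tamoxifen at 250 mg/kg for the RNA sequencing experiments and Scgb1a1-CreERTM mice with a Rosa26-mT/mG or Rosa26R-Confetti reporter, in which the Scgb1a1 promoter of airway club cells drives the recombinase. The cells labelled p53-/- came from 1 other chip, of which 61 cells were kept by the same filters (19 with and 42 without Cdkn1a), and they serve as cells that the rule did not use. Neither age nor the number of animals behind a chip is given for the single cells, and the labels do not make clear whether cells were fresh or cultured. The protocol says that chips captured cell-cycle fractions, while the titles name none. Each chip is therefore 1 sample, cells of a chip are not replicates, and no test, p-value or standard error is given.

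Cdkn1a encodes p21, an inhibitor of cyclin-dependent kinases that stops the cell cycle before DNA replication. The transcription factor p53 activates it after DNA damage and other stress through sites upstream of the gene, and p53-independent signals, among them growth factor and stress signalling, also raise it. In the airway, club cells secrete Scgb1a1 and act as progenitors, while alveolar type 2 cells make surfactant, of which Sftpc is a protein.

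The 250 bases before each of the RefSeq starts of Cdkn1a are shown because p53 is known to act on this gene through upstream sites. They were searched on both strands for the p53 consensus site, 2 adjacent half-sites of 10 bases each, with at most 1 mismatch outside the core bases of each half-site. That allowance was set after the sequence was seen, since an exact search found no adjacent pair. The windows lie on the plus strand of GRCm38.p6 at chr17:29090729-29090978 and chr17:29093519-29093768, and capitals mark the match.
Cdkn1a start 1: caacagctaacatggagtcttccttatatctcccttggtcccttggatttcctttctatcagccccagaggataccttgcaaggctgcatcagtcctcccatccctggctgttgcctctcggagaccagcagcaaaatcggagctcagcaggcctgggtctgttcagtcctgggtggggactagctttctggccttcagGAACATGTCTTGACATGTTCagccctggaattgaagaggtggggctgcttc
Cdkn1a start 2: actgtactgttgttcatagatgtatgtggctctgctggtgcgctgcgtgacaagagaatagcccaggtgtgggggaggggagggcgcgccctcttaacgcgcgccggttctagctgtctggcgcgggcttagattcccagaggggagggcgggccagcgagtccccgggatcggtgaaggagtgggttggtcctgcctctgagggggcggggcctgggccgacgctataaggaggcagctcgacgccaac

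The first window holds 1 match, at chr17:29090928-29090947, with 1 mismatch and 31 bases between it and the start. The second window holds 0 matches. Of 32851 RefSeq promoter windows (250 bases before to 50 after a start), 22 hold such a match (0.0670%), and among 67 windows of 45 genes of the p53 target lists used here 2 do (2.99%), those of Ccng1 and Rps27l. A match describes letters in a window and not binding, and TPM per gene does not tell which start a transcript used.

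The cells had the markers of the labelled epithelium. The 49 Scgb1a1-dominant cells (Scgb1a1 TPM above Sftpc TPM) had a median of 16 of 21 club cell markers and 8 of 11 general epithelial markers detected. The 17 Sftpc-dominant cells had a median of 17 of 18 alveolar type 2 markers and 6 of 11 epithelial markers. Markers of other cells were scarce over the cells as a whole: 11 of 19 immune, 8 of 12 endothelial and 7 of 13 mesenchymal markers were at 0 in every kept cell. No ciliated, neuroendocrine or erythroid marker reached the detection filter used below. Single cells could differ. Of 20 ciliated markers, a wild-type cell had at most 12 detected without Cdkn1a and 2 with it. On the chip labelled knockout these maxima were 17 and 3, and those of the 19 immune markers were 7 without and 10 with Cdkn1a. No cell was left out for such markers.

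Cdkn1a was close to an on-or-off readout in these cells. It was listed at 0 in 32 of the 66 cells, lay between 0 and 1 in 3 (0.13, 0.24 and 0.61 TPM), and the lowest values above the threshold were 3.32, 9.48, 12.59 and 16.46 TPM. In the cells with Cdkn1a it ran from 3.32 through a median of 185 to 909 TPM, and 21 cells were at 100 TPM or more. The share of cells with Cdkn1a was 47% (95% exact Clopper-Pearson interval 34.6% to 59.7%; intervals here cover counting error only).

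Both lung cell states held Cdkn1a at a like share. It was detected in 23 of 49 Scgb1a1-dominant cells (46.9%, interval 32.5% to 61.7%) and in 8 of 17 Sftpc-dominant cells (47.1%, interval 23% to 72.2%). Among the cells that held it, the level was higher in the Scgb1a1-dominant state, with 12.6, 247 and 909 TPM as lowest, median and highest, against 3.32, 103 and 497 TPM in the Sftpc-dominant state. These ranges overlap.

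On the chip labelled knockout, 19 of 61 cells held Cdkn1a (31.1%, interval 19.9% to 44.3%), at a lowest, median and highest TPM of 1.40, 27.6 and 733. The tables of the chips were made separately, and the intervals of the shares overlap. Detected genes had medians of 4233 with and 3506.5 without Cdkn1a there, against 3348 and 2633 in wild type. Of cells there with more than 4000 detected genes 12 of 21 held Cdkn1a, and of those with more than 3000 and up to 4000, 4 of 26. Trp53, which encodes p53, was itself detected in 16 of the 61 cells, against 4 of the 66 wild-type cells, with no allowance for detected genes. The transcript thus does not follow the genotype label, and whole-gene TPM also counts exons outside a deletion.

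**Figure D1:**
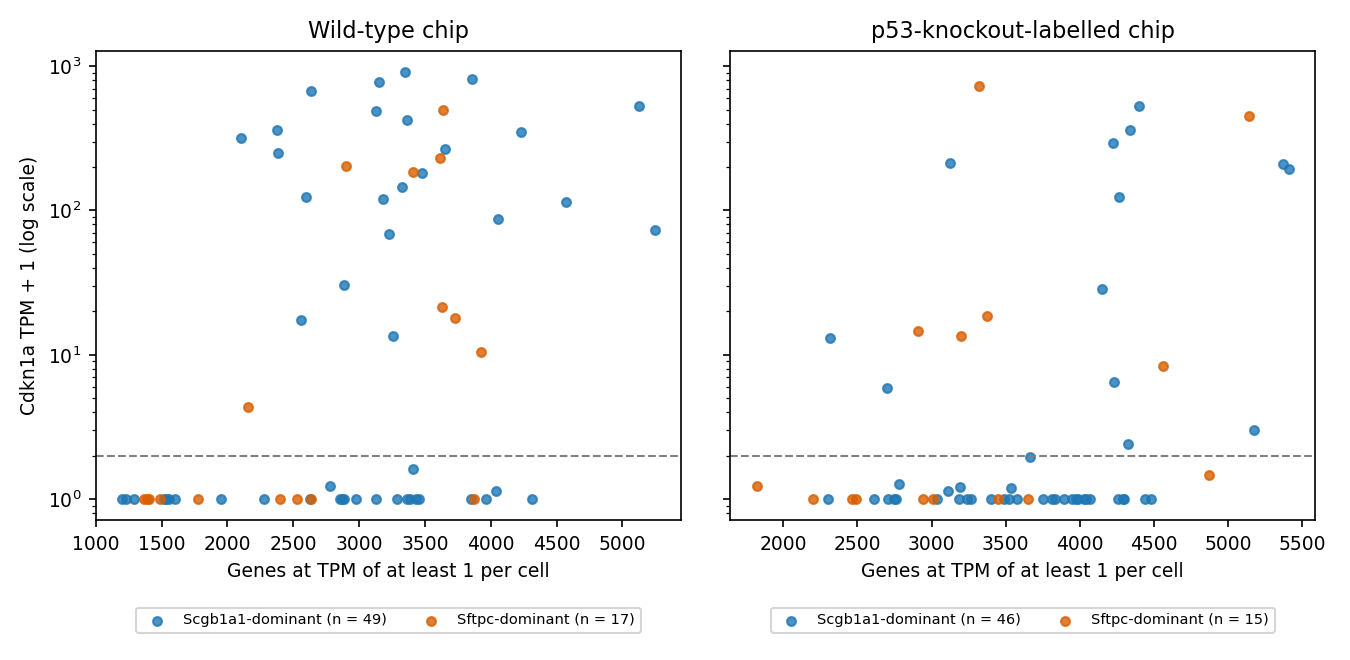
Cdkn1a level (TPM + 1, log scale) against the number of detected genes in each kept cell, for the wild-type chip (66 cells) and the chip labelled knockout (61 cells), coloured by state; the dashed line is the threshold of 1 TPM. Wild-type cells with 2000 detected genes or fewer lie on the floor, and above that, cells with and without Cdkn1a lie side by side.

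Cells with Cdkn1a had more detected genes, and this runs through every comparison below. The number of detected genes was 2099, 3348 and 5245 (lowest, median, highest) in the cells with Cdkn1a and 1201, 2633 and 4313 in those without. Of 13 cells with 1000 to 2000 detected genes 0 held Cdkn1a, of 19 with more than that and up to 3000 genes 9 did (47.4%), of 27 with up to 4000 genes 17 did (63%), and of 7 with more 5 did (71.4%). The gap was wide in the Sftpc-dominant state, with medians of 3623.5 and 1774 genes, and narrower in the Scgb1a1-dominant state, with 3255 and 2880. ERCC spike-ins, RNAs added in equal amount to each well, took medians of 12.0% and 14.6% of TPM in cells with and without Cdkn1a. The lowest and highest shares were 4.59% and 27.1% with Cdkn1a, and 4.91% and 79.7% without. In Sftpc-dominant cells the medians were 17.9% with and 33.6% without Cdkn1a, while in Scgb1a1-dominant cells they were closer. With the spike-in share added to the fit described next, 28 genes were higher and 29 lower past the size, against 29 and 29. A cell that made no Cdkn1a cannot be told apart from one in which it was missed.

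Differences called adjusted below are taken from a linear fit of log2(TPM + 1) on Cdkn1a group, log2 of detected genes and state (with minus without Cdkn1a). A gene entered when it was detected in at least 20% of the kept cells, which 4775 genes did. Genes were counted as past the size at an adjusted difference of at least 2 on the log2 scale with detection in at least 30% of cells in the higher group. By this rule 29 genes were higher in cells with Cdkn1a (0.607% of those entered) and 29 were lower (0.607%). Without the covariates the counts were 217 higher and 5 lower, and the median difference over all genes was 0.52 in place of 0.03.

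The leading pattern was in the airway secretory genes, which were lower in cells with Cdkn1a. Of 12 genes listed for secretory cells of the upper airway, 8 entered, 7 had a negative adjusted difference and all 7 were past the size. The median of the 8 was -3.20 on the log2 scale, beside 0.03 over all genes entered, of which 52.1% were positive. The exception was Chil1, a chitinase-like secreted protein, at 1.14. The list was chosen with earlier results of these cells known.

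Reg3g, a secreted antibacterial lectin, was detected in 8 of 31 cells with Cdkn1a (25.8%, interval 11.9% to 44.6%) and in 17 of 35 without (48.6%, interval 31.4% to 66%). Its lowest, median and highest levels were 0, 0 and 25229 TPM with Cdkn1a and 0, 0.65 and 20757 TPM without. Detection at 1 TPM took in values near the floor. With Cdkn1a, the high cells held 25229, 23482, 12339 and 1322 TPM, and the other detected cells 8.17 TPM or less. Without Cdkn1a there were low values too, such as 1.36 and 4.36 TPM. The highest cells of each group were alike, so the groups differed in how many cells were high rather than in how high the highest were. The same high cells with Cdkn1a were also the highest of their group for Bpifb1, Bpifa1 and Scgb3a1, so the results of these genes rest on the same few cells. The mean log2 level was 2.02 ± 4.50 (SD over cells, n = 31) with and 5.06 ± 5.89 (n = 35) without Cdkn1a, and the adjusted difference was -4.90.

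The BPI-fold proteins Bpifa1 and Bpifb1, secreted into airway surface liquid for host defence, were also detected in fewer cells with Cdkn1a. Bpifb1 was detected in 7 of 31 and 16 of 35 cells, with highest levels of 23338 and 21646 TPM and an adjusted difference of -4.77. Bpifa1 was detected in 13 and 20 cells, with medians of 0.57 and 3.30 TPM, highest levels of 25953 and 125067 TPM, and an adjusted difference of -4.69, so its highest cells were also lower with Cdkn1a. All ranges overlapped, starting at 0 in both groups.

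Scgb3a1, the secretoglobin of upper airway secretory cells, was detected in 19 of 31 cells with Cdkn1a at a median of 6.25 TPM and in 25 of 35 without at a median of 72.3 TPM. Its adjusted difference was -3.58. Muc5b, the gel-forming mucin of club cells, was detected in 6 and 14 cells, with highest levels of 114 and 281 TPM and an adjusted difference of -2.21. Tff2, a trefoil peptide of mucous secretions, was detected in 7 and 13 cells (-2.77), and Ltf, which encodes the iron-binding lactoferrin, in 10 and 16 (-2.82).

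**Figure D2:**
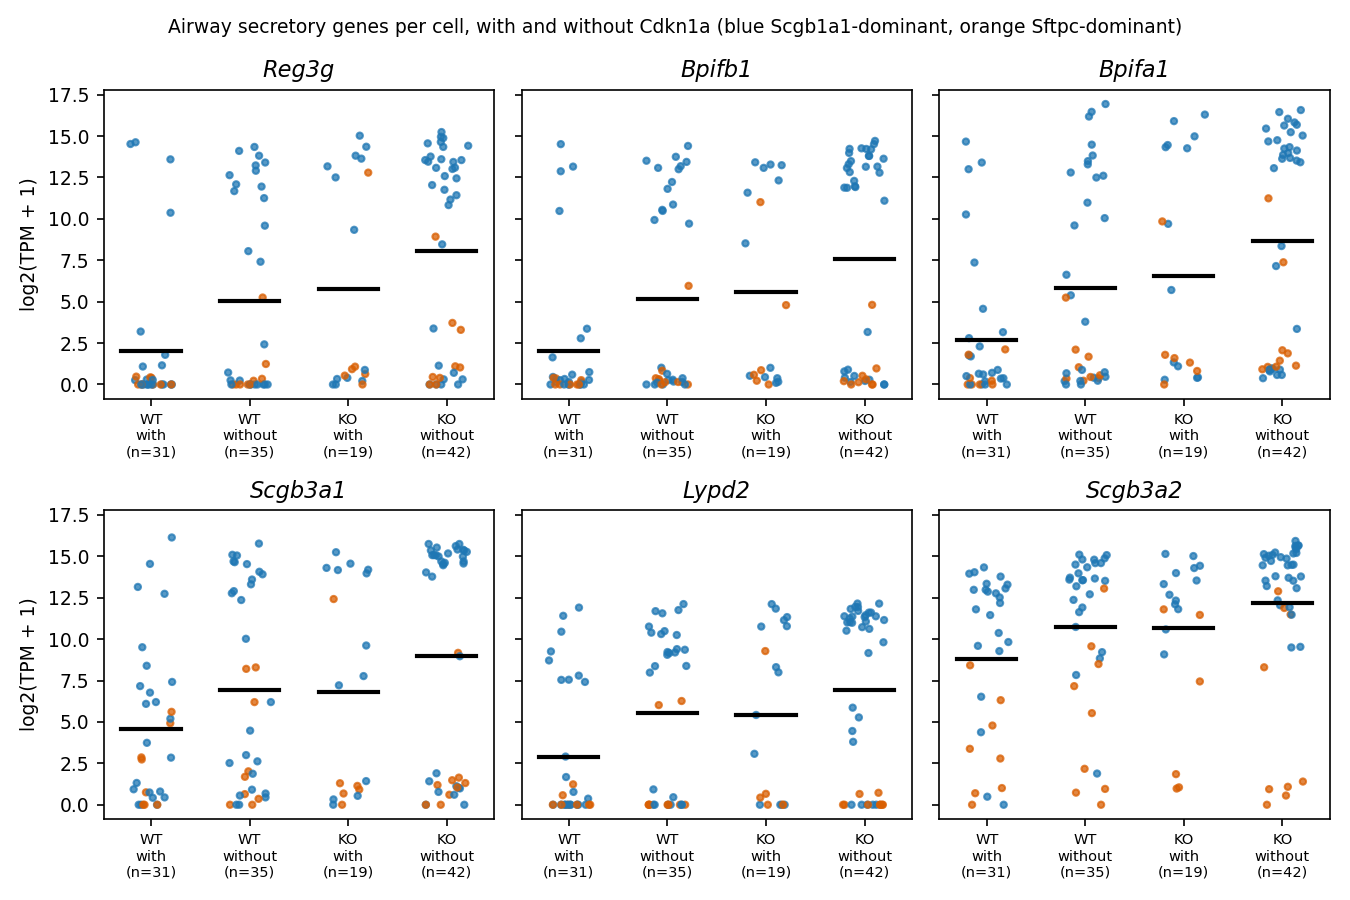
Level per cell, as log2(TPM + 1), of 6 airway secretory genes in cells with and without Cdkn1a on the wild-type chip (31 and 35 cells) and on the chip labelled knockout (19 and 42 cells); blue points are Scgb1a1-dominant cells, orange points Sftpc-dominant cells, and black bars are means. The groups overlap in every panel, and the mean of the cells without Cdkn1a is the higher one in each panel and chip.

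Club cell genes took part unevenly. All 21 listed genes entered, 5 had a positive adjusted difference, against 52.1% of all genes entered, and 16 a negative one, of which 6 were past the size. Lypd2, a GPI-anchored protein of club cells, was detected in 12 of 31 cells with Cdkn1a and 20 of 35 without, at medians of 0 and 251 TPM, with an adjusted difference of -4.18. Scgb3a2, a second club cell secretoglobin, was found in nearly all cells of both groups (27 of 31 and 32 of 35), but at medians of 1322 and 8493 TPM, with an adjusted difference of -2.97.

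The defining club cell genes were much closer between the groups. Scgb1a1 itself was detected in every kept cell, with medians of 313668 and 306304 TPM and an adjusted difference of -0.59. The state in the fit is set by Scgb1a1 and Sftpc, so the adjusted differences of these genes are partly conditioned on their own levels. Over the other settings that of Scgb1a1 ran from -2.89 to 0.15. Cyp2f2, the cytochrome P450 of club cells, had medians of 8263 and 8094 TPM and an adjusted difference of -0.69. The median of the club list was -0.83, beside 0.03 over all genes entered. It was -0.11 in matched cells, beside 0.41 over all genes, and 0.01 without covariates, beside 0.52. Matching kept 62 of the 66 cells and used no covariates. With the levels of Scgb1a1 and Sftpc in the fit the median of the club list was -0.74 over the other 20 genes, 14 of them negative. Cyp2a5, another P450 (-2.64), and Chad, the matrix protein chondroadherin (-2.46), were among the 6 genes past the size.

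Secretory genes were mostly a feature of Scgb1a1-dominant cells, so the difference rests on that state. Reg3g was detected in 8 of 23 Scgb1a1-dominant cells with Cdkn1a and 15 of 26 without, and in 0 of 8 and 2 of 9 Sftpc-dominant cells. Counted per cell over the 8 secretory genes entered, 20 wild-type cells had 5 or more of them, all Scgb1a1-dominant, and 6 of these held Cdkn1a (30.0%, interval 11.9% to 54.3%). Of 28 cells with 2 to 4 of the genes 16 held Cdkn1a (57.1%, interval 37.2% to 75.5%), and of 18 cells with none or 1, 9 did (50.0%, interval 26% to 74%). The cells with 5 or more secretory genes had the highest median of detected genes, 3327, against 3017 and 2686. The intervals of the 3 shares overlap, and the share does not follow the number of secretory genes in order.

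Sftpc moved with the split too. Among Scgb1a1-dominant cells its median was 362 TPM with and 98.5 TPM without Cdkn1a, and its adjusted difference over all kept cells was 0.83. With the levels of Scgb1a1 and Sftpc in the fit in place of the state, an alternative chosen after seeing the data, the median of the secretory list was -3.03. Among cells with at least 2000 detected genes, where 31 cells with and 22 without Cdkn1a had medians of 3348 and 3209 detected genes, it was -3.48.

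Other lower genes were of mixed kinds. Pdpn, the podoplanin membrane protein of alveolar type 1 and basal cells, was detected in 7 and 16 cells (-2.69). Ppm1h, a protein phosphatase that dephosphorylates p27, the inhibitor related to p21, was detected in 8 and 14 cells (-2.11). Sdf2, an endoplasmic reticulum protein (-2.04), and Lrrc26, an auxiliary subunit of potassium channels (-2.12), complete the 12 lower genes named by the fixed rule, with Reg3g, Bpifb1, Bpifa1, Lypd2, Scgb3a2, Ltf, Cyp2a5, Chad and Pdpn.

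The lower genes kept their direction in cells that the rule did not use. Of the 29, all entered on the chip labelled knockout, and 25 had a negative adjusted difference there (86.2%), against 51.1% of the 4542 genes entered on both chips. The median of the 29 there was -1.43, and 10 were past the size in the same direction (0.584% of the 5991 genes entered there were lower by that rule): Reg3g, Bpifb1, Bpifa1, Scgb3a1, Sult1d1, Tff2, Chad, Tst, S100a6 and Lrrc26. Ndufb5, a subunit of respiratory complex I, was past it in the opposite direction (-2.28 in wild type and 2.33 there). Outside the secretory and club lists the count was 12 of 16.

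Reg3g was detected in 9 of 19 cells labelled knockout with Cdkn1a and in 31 of 42 without, at medians of 0.90 and 2524 TPM, with an adjusted difference of -2.83. Scgb3a1 had medians of 147 and 19603 TPM there, with -2.32. The secretory list had a median of -2.32 over 9 genes entered there, of which 8 were negative, while 48.4% of all genes entered there were positive. There too Sftpc was higher beside Cdkn1a in Scgb1a1-dominant cells, with medians of 62405 and 25.7 TPM, and with the levels of both genes in the fit the secretory list had a median of -1.24.

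The 29 genes higher in wild-type cells with Cdkn1a showed no such agreement. Of 28 that entered on both chips, 14 had a positive adjusted difference in the cells labelled knockout (50.0%), against 48.9% of all genes entered on both. Their median there was -0.01.

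Mbip, a protein of the ATAC histone acetyltransferase complex, led the higher genes. It was detected in 23 of 31 cells with Cdkn1a (74.2%, interval 55.4% to 88.1%) and 8 of 35 without (22.9%, interval 10.4% to 40.1%), at lowest, median and highest levels of 0, 61.9 and 513 TPM and 0, 0 and 285 TPM. Its adjusted difference was 3.27, with detection in 23 of 31 and 6 of 22 cells when only cells with at least 2000 detected genes were taken. In the cells labelled knockout it was 0.01.

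Fah, the last enzyme of tyrosine breakdown, was detected in 14 of 31 and 3 of 35 cells, with highest levels of 349 and 7.10 TPM and an adjusted difference of 2.55; it did not enter on the other chip. Gtf2a2, a subunit of the general transcription factor TFIIA, was detected in 21 and 7 cells (2.51 in wild type, 0.05 in the cells labelled knockout). Cox6b1 and Ndufb3, subunits of respiratory complexes IV and I, had adjusted differences of 2.69 and 2.55, and 0.67 each on the other chip. The remaining higher genes named by the rule had adjusted differences from 2.01 to 2.52: 1810037I17Rik, Ufc1 of the ufmylation pathway, the phosphatase subunit Ppp2r1a, Arhgdia, the selenoprotein Sep15, the dynein light chain Dynlt3 and the translocon-associated Ssr1.

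**Figure D3:**
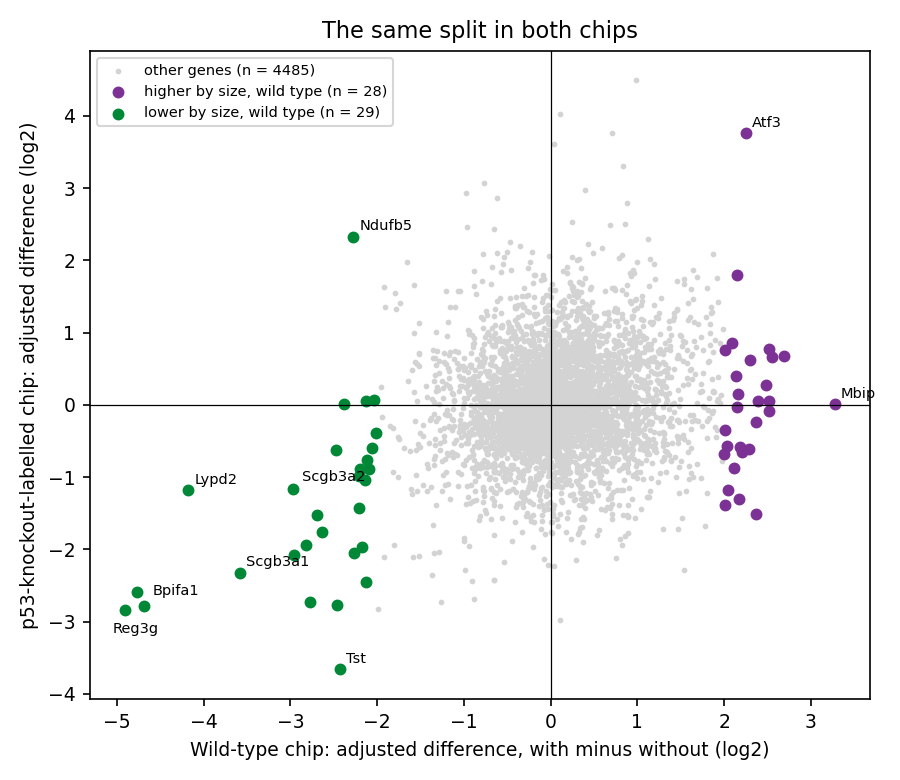
Adjusted difference (log2, with minus without Cdkn1a) of each gene entered on both chips, wild type on the horizontal axis and cells labelled knockout on the vertical axis; green and purple mark genes past the size in wild type. Of the 29 green genes 25 lie below 0 on the vertical axis, while 14 of the 28 purple ones lie above it, with Atf3 the one past the size on both.

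Atf3, a stress-induced transcription factor, was the 1 higher gene past the size on both chips; on the chip labelled knockout 0.668% of genes were higher by that rule. In wild type it was detected in 21 of 31 cells with Cdkn1a and 13 of 35 without, at medians of 35.3 and 0 TPM (highest 843 and 275 TPM), with an adjusted difference of 2.25. In the cells labelled knockout it was detected in 18 of 19 and 23 of 42, at medians of 158 and 4.09 TPM, with 3.76. The groups overlapped on both chips.

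Other immediate early genes, which are switched on within minutes of a stimulus, had smaller differences. Of 23 listed, 19 entered in wild type and 15 were positive, beside 52.1% of all genes entered, with a median of 0.41. On the other chip 17 of 21 were positive, with a median of 1.01, beside 48.4% of all genes entered there. Klf6, a zinc finger factor, was detected in 24 of 31 and 13 of 35 wild-type cells at medians of 34.1 and 0.36 TPM, and its adjusted differences were 1.80 in wild type and 1.62 in the cells labelled knockout. Egr1, a growth-signal transcription factor, had 1.25 and 1.27, while Fos, a subunit of AP-1, had -0.30 and 1.61. Over the other settings the wild-type value of Egr1 ran from -1.04 to 2.38. In wild-type Sftpc-dominant cells only, the median of the immediate early list was 0.001.

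Known targets of p53 were detected in more of the wild-type cells with Cdkn1a than of those without. Of the targets, 48 had the higher share of detected cells with Cdkn1a, as did 72.6% of all genes before any allowance for detected genes. Most of the 57 listed are sparse in these cells: 54 were detected in at least 1 wild-type cell and 17 entered. Of these 17, 11 were positive, beside 52.1% of all genes entered, with a median of 0.55 and 0 past the size. In Sftpc-dominant cells only, the median of the p53 target lists was -0.17. With no filter on detection, 42 of the 54 were positive (77.8%), against 52.7% of all 15659 genes detected in at least 1 cell. In the cells labelled knockout the same count was 28 of 52 (53.8%), against 48% of 16165 genes. The difference between the chips was not tested.

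Per cell, a median of 14 of the 57 targets was detected with Cdkn1a (range 8 to 30) and 9 without (range 2 to 21) in wild type. With detected genes and state in the fit, cells with Cdkn1a had 3.17 more targets detected, beside a residual SD of 3.63 between cells. In the cells labelled knockout, which had more detected genes, the medians were 16 and 14. The fitted difference there was 0.34 beside a residual SD of 3.17. The spread between cells was as large as the wild-type difference.

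Among the feedback genes, Ccng1, a cyclin that acts with a phosphatase on Mdm2, was detected in 18 of 31 wild-type cells with Cdkn1a (58.1%, interval 39.1% to 75.5%) and 8 of 35 without (22.9%, interval 10.4% to 40.1%). Its lowest, median and highest levels were 0, 6.80 and 383 TPM and 0, 0 and 302 TPM, and the adjusted difference was 1.39, against -0.18 in the cells labelled knockout. Mdm2, the ubiquitin ligase that degrades p53, was detected in 9 and 4 cells (0.62, and 0.87 on the other chip). Trp53inp1, a promoter of p53-dependent stress responses, was detected in 10 and 3 cells (1.07, and -0.33 on the other chip).

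Of the growth arrest genes, Gadd45a, a stress sensor that binds PCNA, was detected in 20 of 31 and 11 of 35 cells (1.19), and Plk2, a polo-like kinase, in 21 and 15 (1.07). Some sparse targets, named after their values were seen, were found mostly in the cells with Cdkn1a before any allowance for detected genes. Epha2, an ephrin receptor, was detected in 10 and 2 cells, Psrc1, a microtubule-associated protein, in 7 and 1, and Phlda3, an inhibitor of AKT signalling, in 6 and 2. Gdf15, a secreted stress cytokine, was detected in 5 cells with Cdkn1a and 0 of 35 without, and Sesn2, a stress-induced inhibitor of mTORC1, in 4 and 0. A count of 0 of 35 allows a share of up to 8.57%. Others went the other way: among cells with at least 2000 detected genes Tigar, an inhibitor of glycolysis, was detected in 2 of 31 and 4 of 22, and Abhd4, a lipase, in 5 and 6.

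Those sparse targets were picked for their split in wild type, so a weaker split in any other cells would follow from the choice alone. On the chip labelled knockout they were rarer or not split in the same way, and a link to genotype was not tested. Phlda3 was detected in 0 of its 61 cells, which allows a share of up to 4.92%, Psrc1 in 1 of 19 and 0 of 42, and Gdf15 in 1 of 19 and 3 of 42. Epha2 was detected in 5 of 19 and 10 of 42. Sesn2 was the exception, in 2 of 19 and 0 of 42.

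The apoptosis genes did not share 1 direction. Bax, the pore-forming killer protein, was detected in 10 of 31 and 3 of 35 wild-type cells (1.32), and in 2 of 19 and 8 of 42 cells labelled knockout (-0.96). Bbc3, which encodes Puma, was detected in 6 and 2 wild-type cells, and Siva1, a death-domain adaptor, in 17 and 10 (1.35). Perp, a desmosomal p53 effector (-0.90), Apaf1, the scaffold of the apoptosome (-0.67), and Tnfrsf10b, a TRAIL receptor (-0.50), were lower. The median of the 5 apoptosis genes entered was -0.50, but it turned to 0.30 with a filter of 10% of cells and to 0.65 in matched cells. The medians over all genes in these 2 settings were 0.02 and 0.41. With no filter 11 of 15 were positive, beside 52.7% of all genes detected in at least 1 cell, with a median of 0.14. Leaving out 1 cell moved the median of the 5 to as much as 0.08.

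**Figure D4:**
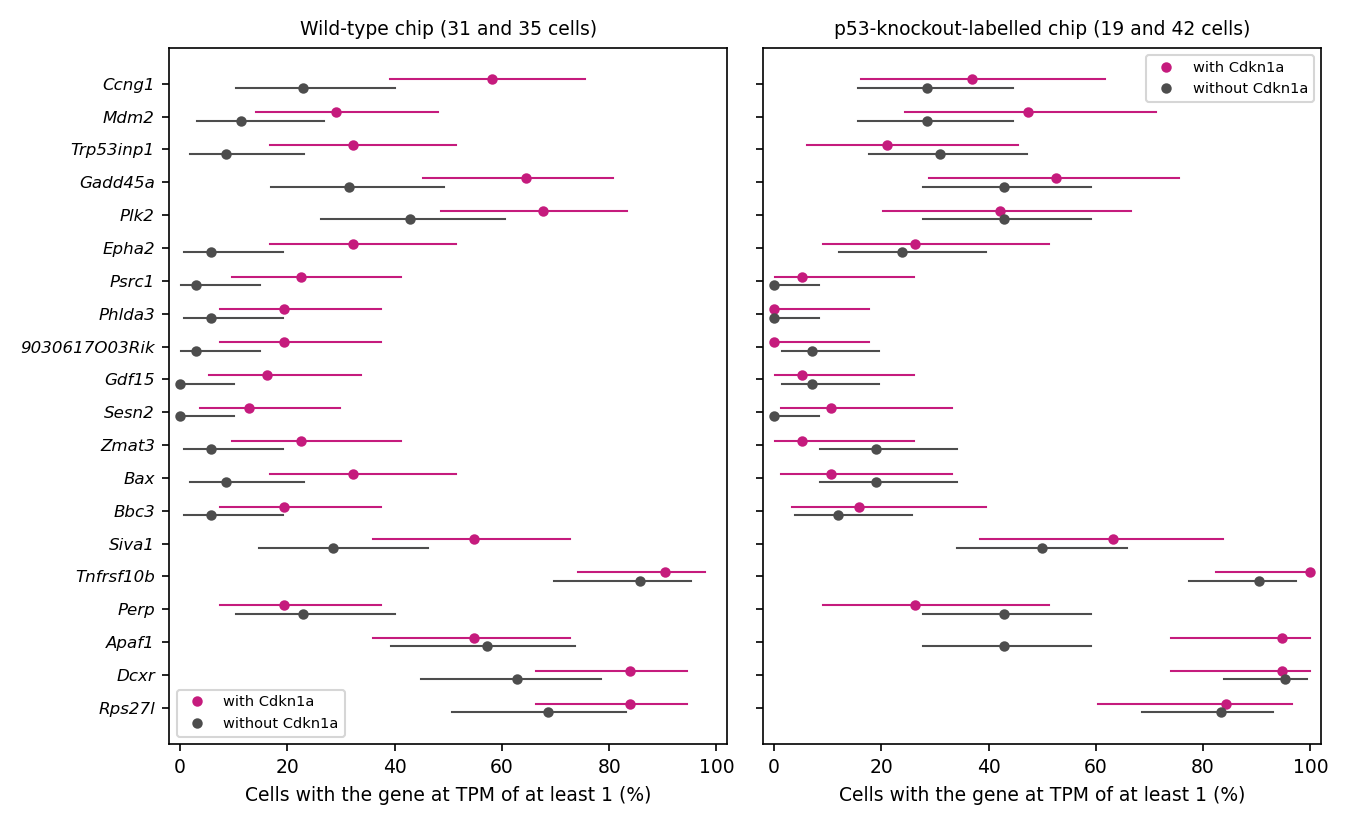
Share of cells (%) with each of 20 p53 target genes detected, with 95% exact binomial intervals, in cells with and without Cdkn1a on each chip; shares are not adjusted for the number of detected genes. In wild type the share is higher with Cdkn1a for 18 of these 20 chosen targets, all but Perp and Apaf1, as it is for 72.6% of all detected genes.

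The cell cycle machinery that p21 acts on showed little separation. Of 83 genes in the cell cycle lists, 19 entered, 9 were positive, beside 52.1% of all genes entered, and the median was -0.00. The defining proliferation markers were rare in both groups: Mki67 was detected in 2 of 31 and 3 of 35 cells at no more than 3.95 TPM, and Top2a in 0 of 66, which allows a share of up to 4.55%. Other genes of the G2 and M phases were found in more cells, among them Hmmr, a microtubule-binding receptor, in 16 and 12 cells and Ube2c, a mitotic ubiquitin-conjugating enzyme, in 15 and 9. Gmnn, which encodes geminin, the inhibitor of replication licensing, was the 1 gene past the size, detected in 5 of 31 and 13 of 35 cells, all Scgb1a1-dominant, with an adjusted difference of -2.38; in the cells labelled knockout it was 0.02.

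Among the CDK inhibitors, Cdkn1b, which encodes p27, was detected in 28 of 31 and 23 of 35 cells at medians of 16.4 and 3.59 TPM, with adjusted differences of 0.95 in wild type and 0.59 in the cells labelled knockout. At 2000 detected genes or more its detection was 28 of 31 and 20 of 22. Cdkn2a, which encodes p16 and p19ARF, was at 0 in every kept cell. Pcna, the replication clamp that p21 binds, was detected in 15 and 7 cells (0.88), and Ccnd1, the cyclin D1 partner of CDK4, in 16 and 14 (-0.995).

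Of the alveolar type 2 genes 14 of 17 were positive, beside 52.1% of all genes entered, with a median of 0.44. On the chip labelled knockout 14 of 17 were positive as well, beside 48.4%, with a median of 0.92. With the levels of Scgb1a1 and Sftpc in the fit, the medians over the other 16 genes were 0.21 and -0.05, with 5 and 8 of them negative. MHC class II genes, whose products present antigen and are also made by alveolar type 2 cells, stood further apart on that chip: 4 of 4 entered were positive on each, with medians of 0.55 in wild type and 3.68 in the cells labelled knockout. With those levels in the fit the medians were 0.13, with 2 of 4 negative, and 2.94. H2-Aa, the class II alpha chain, was detected in 13 of 31 and 10 of 35 wild-type cells (0.99), and in 14 of 19 and 14 of 42 cells labelled knockout (4.49). Sftpc, which defines the states, is a member of the alveolar type 2 list.

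**Figure D5:**
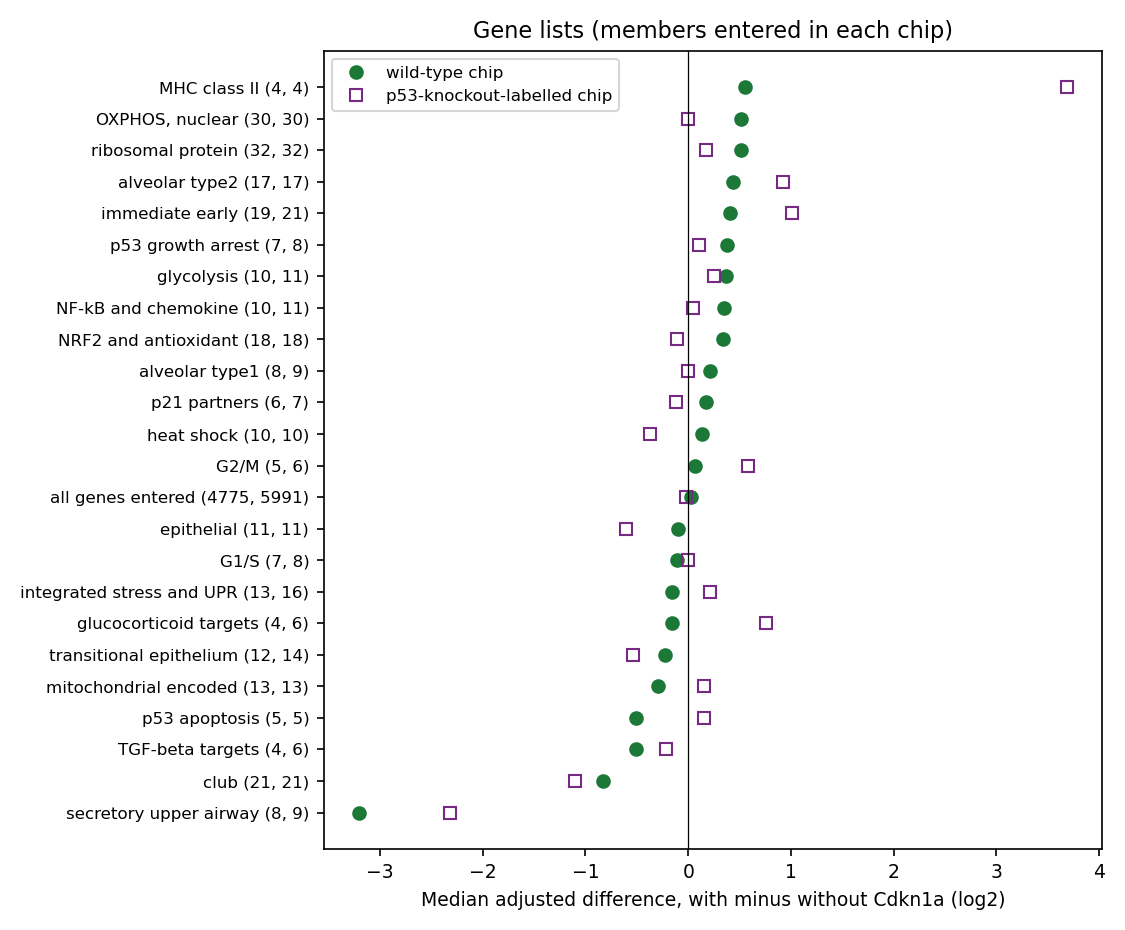
Median adjusted difference (log2, with minus without Cdkn1a) over the members entered of a gene list. Filled circles are the wild-type chip and open squares the chip labelled knockout. Lists with at least 4 members entered on each chip are drawn, and numbers in brackets are members entered on each. The secretory list has the lowest median on both chips (-3.20 and -2.32), and most other lists lie within 1 of the line at 0.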

How the data were processed

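The authors deposited a table of TPM values per chip. The submitters' processing notes name Bowtie 1.1.1, RSEM 1.2.20 and the GRCm38 genome; reads were single-end of 75 bases, per the labels' protocols. The wild-type table holds 31267 rows, 92 of them ERCC spike-ins, which count in the TPM total but not as genes. TPM keeps no read counts, so the depth per cell is unknown and detected genes (TPM of at least 1) stand in for it. No 2 kept wild-type cells correlated above 0.613, so none was taken as a duplicate. Adjusted differences came from ordinary least squares on log2(TPM + 1), fitted to every gene entered (Python 3.11.15, numpy 2.4.6, pandas 2.3.3). Only this fit was tested on simulated data, with normally distributed noise, which the many values at 0 do not follow. On this scale the differences of weakly expressed genes are understated. Shares have 95% exact Clopper-Pearson intervals (scipy 1.17.1), and a count of 0 is given an upper limit of 3 cells of the total. Figures used matplotlib 3.10.9. Promoter sequences are RefSeq's for GRCm38.p6.

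Named genes are Cdkn1a, the 12 higher and 12 lower genes past the size with the largest adjusted difference per residual SD (same direction in both states, no predicted genes or pseudogenes), up to 3 members of each list, Trp53, Mdm2, Scgb1a1 and Sftpc, and the defining members of lists. Genes past the size on both chips are named as well. The groups, the gene lists and the rule were chosen with earlier results of these data known. Alternatives were the pseudocount, detection filter, Cdkn1a threshold, minimum of detected genes, covariates, spike-in rescaling, each state alone, matched cells and leaving out each cell in turn. The bulk libraries were not used here, and 2 cells labelled knockout without a matched column were not analysed here.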

Additional observations from a re-analysis of the deposited data

Results flagged for a closer look

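Cdkn1a was also present in wells outside the comparison. The wild-type well left out for its debris or valve remark held Cdkn1a at 202 TPM, with 4232 detected genes. Of 3 such wells labelled knockout, 1 held it at 8.22 TPM. The off-chip positive control held 8.38 TPM with 7953 detected genes, while the negative control, with 2 detected genes, was at 0. These 3 values stand out because they lie above the negative control in wells that no comparison used.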

How the results depend on the processing

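The counts past the size depended on the settings. Against 29 higher and 29 lower, they were 176 and 83 with a pseudocount of 0.1, 0 and 6 with 10, 66 and 11 with no minimum of detected genes, 217 and 5 both without covariates and with state only, 120 and 7 in matched cells, 50 and 47 in Scgb1a1-dominant cells only, and 450 and 270 in Sftpc-dominant cells only. That last setting has 8 cells with and 9 without Cdkn1a. The pseudocount sets how far a detected cell lies from one at 0; for the other settings the cause was not tested. Leaving out each cell in turn gave 25 to 38 higher and 24 to 34 lower genes. The difference in median detected genes, 715, was 1849.5 in Sftpc-dominant cells only and 643 to 723.5 leaving out each cell.

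The median of the p53 target lists, 0.55, was 0.51 to 0.91 leaving out each cell and -0.17 in Sftpc-dominant cells only; that of the cell cycle lists was -0.02 to 0.15 leaving out each cell. The secretory list median was negative in every setting run, from -3.83 (pseudocount 0.1) to -1.43 (Sftpc-dominant cells only). In that last setting the median was the value of Bpifa1, and Reg3g, Bpifb1 and Ltf did not enter. Bpifa1 was near the floor there, at no more than 3.34 TPM with Cdkn1a and 36.9 TPM without. All 12 named lower genes and 10 of the 12 higher kept their sign in every setting that gave them a value. Sftpc-dominant cells only gave no value for 10 lower and 2 higher genes. The exceptions were Ppp2r1a (-0.062) and Dynlt3 (-0.87) in Sftpc-dominant cells only. These genes were chosen from the same cells by size and by the same direction in both states. Their kept signs were therefore largely set by that choice and are no support. No paired analysis was possible because the groups are cells of 1 chip and share no replicate numbers. With 1 chip per genotype and no named animals, spread between animals is unknown, and in shallow cells a gene at 0 may have been missed.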

Other observations

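Housekeeping lists differed by small amounts in wild type. All 32 ribosomal protein genes, which encode the translation machinery, had a positive adjusted difference, beside 52.1% of all genes entered. Their median was 0.51 on the log2 scale, but -0.04 in Sftpc-dominant cells only. Of 30 nuclear genes of oxidative phosphorylation 22 were positive, with a median of 0.51. All 13 mitochondrially encoded genes were negative, with a median of -0.29. In the cells labelled knockout these values were 20 of 32 (0.17), 16 of 30 (0.00) and 12 of 13 positive (0.16), beside 48.4% of all genes entered there. The mitochondrially encoded genes thus had the other sign there. Mitochondrial transcripts took a median of 5.70% of TPM in wild-type cells with Cdkn1a and 6.91% without.

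On the chip labelled knockout 2 cells with Cdkn1a were rich in mitotic genes. Of 32 genes of the G2 and M phases these cells had 31 and 28 detected, while the other cells with Cdkn1a had 2 to 7 and the cells without had 0 to 8. In wild type the ranges were 0 to 8 and 0 to 7.

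Genes of the NRF2 antioxidant response were positive for 14 of 18 in wild type, beside 52.1% of all genes entered, with a median of 0.34. In the cells labelled knockout they were positive for 6 of 18, beside 48.4% of all genes entered there, with a median of -0.11. Hmox1, the heme oxygenase, did not enter but was detected in 10 of 31 and 3 of 35 cells (1.08), and in 4 of 19 and 9 of 42 cells labelled knockout (-0.09).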
